A study of Mus musculus with 24 samples.

Results

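The genes described here are core genes of fatty acid synthesis, namely Fasn, Acly, Acaca, Acacb, Me1, Elovl6, Thrsp, Srebf1, Mlxipl and Pnpla3. They were chosen by gene symbol, and all 10 symbols were found among the 55797 gene names of the count files. The 24 libraries hold poly(A) RNA of brain or liver from male mice with the strain entry C57/BL6. The db/db mice carry a leptin receptor knockout, and the db/+ mice, which carry a functional copy, served as their controls. The drink of each genotype was water, sucrose or brazzein, a protein with a sweet taste named 3M-Brazzein in the study's title, and the treatment entry reads 16 weeks for every library. Each of the 12 combinations of tissue, genotype and drink held 2 libraries. The sources used here give neither the age of the mice nor the brain region. Nothing says whether the 2 libraries of a group came from separate mice, so p-values measure the spread between these libraries, which may be technical.

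Genotype was read from the sample titles, which the separate genotype entry contradicts for 12 of the 24 samples. Total estimated counts ran from 60384569 to 79385804 per liver library and from 58287665 to 77772849 per brain library. Lepr, the leptin receptor gene, held 1.90 to 18.9 CPM (estimated counts scaled to a common library size) in db/+ livers and 0.690 to 2.50 CPM in db/db livers, and 3.13 to 3.87 against 2.004 to 2.77 CPM in brain. Since the count pools all forms of the receptor, it is no check of the mutation. The hepatocyte markers Alb, Apoa1, Ttr, Hnf4a, Cps1, Serpina1c and Cyp2e1 were detected in every liver, and the summed neuron markers ran from 5689 to 6039 CPM in brain.

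Fatty acid synthesis turns surplus carbohydrate into fat. Citrate that leaves the mitochondria is split by ATP citrate lyase (Acly) into acetyl-CoA, the acetyl-CoA carboxylases (Acaca in the cytosol, Acacb at the mitochondrial surface) make malonyl-CoA, and fatty acid synthase (Fasn) joins these units into palmitate with NADPH that malic enzyme (Me1) helps to supply. Elovl6 lengthens palmitate, and Thrsp, also called Spot 14, is a small protein induced by thyroid hormone and carbohydrate feeding that promotes the pathway. In liver the enzymes are under the control of SREBP-1 (Srebf1), which responds to insulin, and ChREBP (Mlxipl), which responds to glucose, and Pnpla3 encodes a lipid droplet protein that is a known target of both. The brain makes fatty acids of its own for membranes and myelin.

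Promoter windows from RefSeq (mouse build GRCm38.p6, 250 bases before to 50 after a start site) were found for all 10 genes, 14 windows in all. The stretch before the start site is shown for Fasn and Thrsp, whose livers differed between genotypes on every drink. It is also shown for Mlxipl, which alone held CACGTG. In db/+ livers the levels of Mlxipl lay apart by drink, and in db/db livers sucrose lay above water and brazzein. However, edgeR on all livers called no drink difference. Sequences run 5′ to 3′ on the gene's strand, with 3 motifs, found on either strand, in capitals. The first is CCAAT, a box that many promoters hold. The second is GGGCGG, the core of a GC box. The third is CACGTG, an E-box of the kind that ChREBP and USF factors are known to bind.
Fasn, chr11:120824548-120824797, minus strand: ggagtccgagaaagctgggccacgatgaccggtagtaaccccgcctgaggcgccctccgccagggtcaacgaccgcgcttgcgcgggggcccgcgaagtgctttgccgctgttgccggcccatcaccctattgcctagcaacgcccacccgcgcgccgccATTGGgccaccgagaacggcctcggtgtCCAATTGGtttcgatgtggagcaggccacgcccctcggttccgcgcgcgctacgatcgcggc
Thrsp, chr7:97417551-97417800, minus strand: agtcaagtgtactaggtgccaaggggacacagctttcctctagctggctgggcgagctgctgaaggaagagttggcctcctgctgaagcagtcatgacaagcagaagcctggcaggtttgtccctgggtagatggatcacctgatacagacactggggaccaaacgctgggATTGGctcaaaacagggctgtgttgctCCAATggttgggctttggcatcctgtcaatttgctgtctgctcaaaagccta
Mlxipl, first start site, chr5:135089640-135089889, plus strand: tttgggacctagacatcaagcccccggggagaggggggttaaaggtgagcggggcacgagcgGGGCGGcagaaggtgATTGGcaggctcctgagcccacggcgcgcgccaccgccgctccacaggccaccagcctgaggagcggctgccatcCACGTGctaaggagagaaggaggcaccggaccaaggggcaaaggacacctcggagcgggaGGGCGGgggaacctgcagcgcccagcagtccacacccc
Fasn held CCAAT at 3 places that begin 90, 62 and 59 bases before the start, and the last 2 overlap each other and a CANNTG. Thrsp held it at 2 places, 79 and 52 bases before the start. Mlxipl held CACGTG 98 bases before the start, which is also a CANNTG.

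Over all 14 windows, CCAAT was present in 9, against 37.4% of the 32851 windows in the table, and these 9 belong to 8 of the 10 genes (all but Acaca and Elovl6). GGGCGG was present in 6 of the 14 windows, against 35.7% of all windows, and these belong to 5 genes (Acly, Me1, Srebf1, Mlxipl and Pnpla3). CACGTG was present in 1 of the 14 windows, which belongs to Mlxipl, against 7.15% of all windows. The looser CANNTG was present in 11 of the 14 windows, against 72.3% of all windows, and these belong to 8 genes, all but Acly and Elovl6. A pair of CANNTG with 5 bases between them was found in no window of the 10 genes and in 0.767% of all windows. The Elovl6 window held none of these motifs. A match is a run of letters and does not show binding.

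Levels per length (FPKM) put the genes in different orders in the groups. In db/+ liver, Me1 was highest with a median of 24.97 FPKM (16.6 to 31.5 over 6 libraries), followed by Mlxipl at 16.0, Thrsp at 6.55, Acly at 6.24, Fasn at 4.50, Srebf1 at 4.37, Elovl6 at 2.16 and Acacb at 1.73. From Me1 to Acacb, the ranges of neighbours in this order overlapped. Acaca had a median of 0.0212 FPKM and Pnpla3 was listed at 0 in 5 of the 6 libraries. In db/db liver, Thrsp was highest with a median of 292 FPKM (183 to 404), above Me1 at 71.5 (64.5 to 97.6) with no overlap. Fasn followed at 20.02 FPKM (14.5 to 26.1), and its range overlapped those of Acly at 15.2, Srebf1 at 14.9, Elovl6 at 12.1 and Mlxipl at 9.87 FPKM. Acacb (3.66), Acaca (0.769) and Pnpla3 (0.0717) came after them. In brain, Acly (medians 45.7 FPKM in db/+ and 45.1 in db/db) and Fasn (25.02 and 24.7) were highest in both genotypes, and Mlxipl was lowest (0.149 and 0.172). Me1 and Thrsp came next in brain, with overlapping ranges of 15.2 to 16.7 and 12.2 to 15.9 FPKM in db/+.

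In liver, most of these genes had higher levels with the db/db genotype. Averaged over the drinks, 8 of the 10 passed as higher and 0 as lower (edgeR quasi-likelihood test, Benjamini-Hochberg adjusted p under 0.05 over all 19352 genes tested), where 7.91% of all genes passed as higher. The median log2 difference of the 10 genes was 2.003, beside -0.03 for all genes tested. In bulk tissue, fewer cells of a type and less RNA per cell cannot be told apart. The CPM values of all db/db livers lay above those of all db/+ livers for 6 genes (Fasn, Acly, Me1, Elovl6, Thrsp and Pnpla3), against 4.91% of all genes, and overlapped for the other 4. Pnpla3 held at most 2 estimated counts in a db/+ liver. It passed the filter on low counts only through db/db livers, so it adds no support to either count. Without 1 library the count of higher genes was 4 (db/db sucrose replicate 1), 5 (db/+ brazzein replicate 1, db/+ sucrose replicate 2 or db/db sucrose replicate 2) and up to 7 for the rest.

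**Figure D1:**
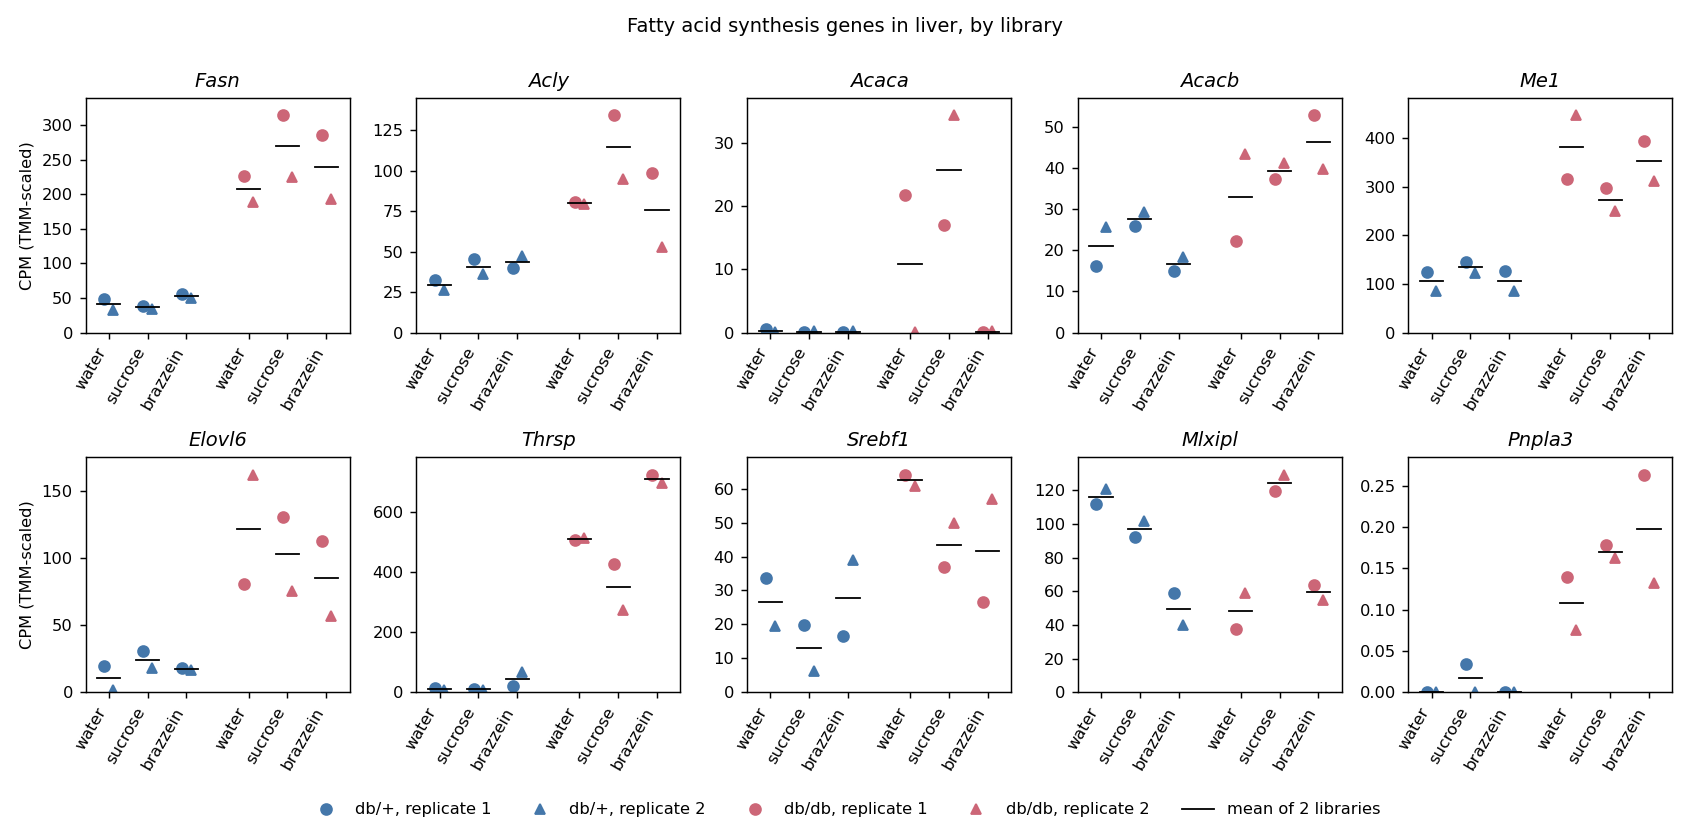
CPM (vertical axes from 0, scaled to each gene) of the 10 genes in the 12 liver libraries, grouped by genotype and drink, with a line at the mean of each group's 2 libraries. The db/db points of Fasn, Acly, Me1, Elovl6, Thrsp and Pnpla3 lie above all db/+ points, and Acaca is near 0 in 9 of the 12 livers.

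Fasn, the synthase itself, stood at 49.1 and 32.96 CPM in db/+ livers with water, 38.9 and 34.4 with sucrose, and 55.3 and 50.5 with brazzein. The db/db livers stood at 227 and 188 CPM with water, 315 and 225 with sucrose, and 286 and 194 with brazzein. Every db/db liver was thus above every db/+ liver, with the lowest db/db value at 188 CPM and the highest db/+ value at 55.3 CPM. Fasn rose by 2.47 on the log2 scale (SE 0.16, edgeR adjusted p = 0.000304).

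Acly and Me1 feed the synthase with acetyl-CoA and NADPH. Acly ranged from 26.6 to 47.1 CPM in db/+ livers and from 52.6 to 134 CPM in db/db livers, and rose by 1.24 (SE 0.18, edgeR adjusted p = 0.00489). Me1 ranged from 85.2 to 145 CPM in db/+ livers and from 250 to 447 CPM in db/db livers, and rose by 1.54 (SE 0.16, edgeR adjusted p = 0.00153). Neither gene's ranges overlapped between genotypes. The calls of Fasn, Acly, Me1 and Thrsp remained when any 1 of the 12 livers was left out.

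Thrsp had the largest fitted difference of the 9 genes for which a fold is given. In db/+ livers it stood at 13.8 and 7.51 CPM with water, 10.6 and 8.35 with sucrose, and 20.9 and 67.7 with brazzein. In db/db livers it stood at 509 and 516 CPM with water, 427 and 275 with sucrose, and 726 and 697 with brazzein. In both genotypes the brazzein livers were the highest, and 1 db/+ brazzein liver (replicate 2) lay well above the other 5. Thrsp rose by 4.93 on the log2 scale (SE 0.34, edgeR adjusted p = 0.000396).

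Elovl6, the elongase for palmitate, stood at 19.7 and 1.36 CPM in db/+ livers with water, 30.8 and 17.8 with sucrose, and 18.001 and 16.3 with brazzein. In db/db livers it stood at 80.5 and 162 CPM with water, 131 and 75.7 with sucrose, and 113 and 56.6 with brazzein. The groups did not overlap, and db/+ water replicate 2 was far below the other livers. Elovl6 rose by 2.64 (SE 0.59, edgeR adjusted p = 0.0231), a call that was lost (adjusted p up to 0.0699) without db/+ brazzein replicate 1 or 2, db/+ sucrose replicate 1 or 2, db/db sucrose replicate 1 or db/db water replicate 2.

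Acacb, the carboxylase tied to the control of fatty acid oxidation, ranged from 14.99 to 29.2 CPM in db/+ livers and from 22.3 to 52.8 CPM in db/db livers. Its ranges overlapped through db/db water replicate 1 at 22.3 CPM. Acacb rose by 0.88 (SE 0.20, edgeR adjusted p = 0.0239), and the call remained in 4 of the 12 fits with 1 liver left out (those without replicate 2 of db/+ brazzein, db/+ water or db/db brazzein, or without replicate 1 of db/db water), with an adjusted p of up to 0.0697 in the other 8.

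Acaca, the cytosolic carboxylase, fell into 2 levels. In db/+ livers it stood at 0.590 and 0.0715 CPM with water, 0.0346 and 0.222 with sucrose, and 0.161 and 0.196 with brazzein, or 2 to 35 estimated counts per library. In db/db livers it stood at 21.7 and 0.0879 CPM with water, 16.95 and 34.3 with sucrose, and 0.118 and 0.205 with brazzein. Thus 3 db/db livers (water replicate 1 and both on sucrose) held 1329 to 2756 estimated counts, and the other 3 held 7 to 14, inside the db/+ range. The log2 difference was 4.16 (SE 1.15, edgeR adjusted p = 0.0465), and the call remained in 1 of the 12 fits with 1 liver left out (db/db water replicate 2, adjusted p = 0.0149). The other 11 gave an adjusted p of up to 0.127. With the replicate number as a block, the adjusted p was 0.0713.

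**Figure D2:**
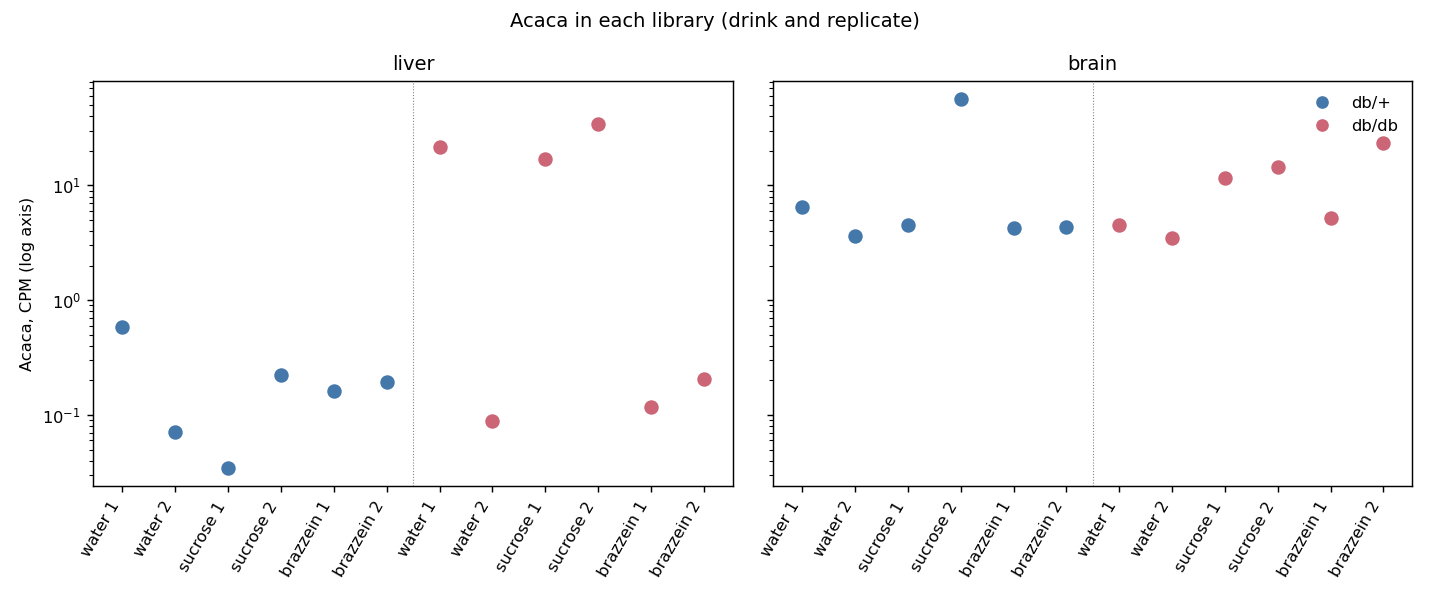
CPM of Acaca on a log axis in each of the 12 liver and 12 brain libraries, named by drink and replicate and coloured by genotype. In liver 3 db/db libraries sit between 16.95 and 34.3 CPM and the other 9 below 1 CPM, and in brain 1 db/+ library sits at 56.1 CPM.

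The split in Acaca went with a second measure in the files. The estimated count divided by the deposited coverage is constant for a gene counted over 1 fixed length, as for Me1 at 43.8 in each of the 22 libraries whose coverage could be matched to 1 sample (not the 2 db/+ livers on brazzein) and Thrsp between 17.03 and 17.1. For Acaca this ratio was 119.3 to 120.1 in the 3 high db/db livers and 68.3 to 90.9 in the other 7. For Fasn it was 79.4 to 92.5 in db/+ livers on water or sucrose, 93.2 and 106 in db/db livers on brazzein, 125 to 131 in db/db livers on water or sucrose, and 123 to 132 in all brains. For Fasn the db/db to db/+ ratio of means was 5.49 in CPM and 4.64 in FPKM. The ratio for Elovl6 was 50.6 in db/+ water replicate 2, its lowest liver, and 72.1 to 79.3 in the other 9 matched livers. What part this measure has in the differences was not tested.

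**Figure D3:**
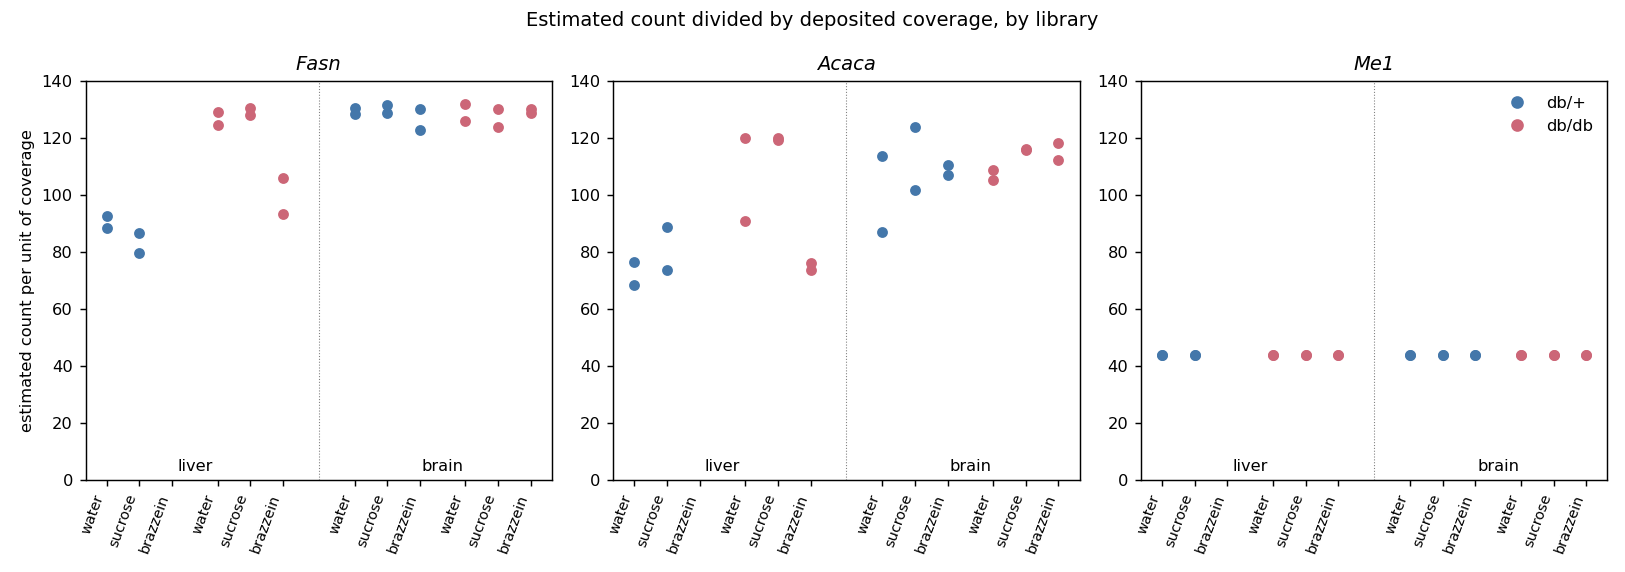
Estimated count per unit of deposited coverage (vertical axis, from 0) for Fasn, Acaca and Me1 in each library, by tissue, drink and genotype, without the 2 db/+ livers on brazzein. Me1 stays at 43.8, whereas Fasn is at 79.4 to 92.5 in the db/+ livers shown and 123 to 132 in brains, and Acaca is at 119.3 to 120.1 in the 3 livers where it is high.

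Pnpla3, the lipid droplet protein, was near the limit of detection in liver. In db/+ livers it was listed at 0 in 5 of 6 libraries and at 2 estimated counts in sucrose replicate 1 (0.0346 CPM). In db/db livers it held 10 and 6 estimated counts with water, 14 and 13 with sucrose, and 20 and 9 with brazzein, or 0.0753 to 0.263 CPM. In liver, Pnpla3 was thus kept by the filter on low counts only through the genotype where it is higher. It passed as higher (edgeR adjusted p = 0.0163), but not without db/db sucrose replicate 1 or 2 (adjusted p up to 0.0535), and a fold is not given against a group listed almost wholly at 0.

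The regulators Srebf1 and Mlxipl did not pass in edgeR. Srebf1 stood at 33.6 and 19.4 CPM in db/+ livers with water, 19.8 and 6.12 with sucrose, and 16.6 and 38.9 with brazzein. In db/db livers it stood at 64.2 and 60.8 CPM with water, 36.9996 and 49.8 with sucrose, and 26.5 and 56.9 with brazzein. The 2 genotypes overlapped through db/db brazzein replicate 1, db/db sucrose replicate 1 and 2 of the db/+ livers (water replicate 1 and brazzein replicate 2), with a log2 difference of 1.19 (SE 0.37, edgeR adjusted p = 0.0666). It passed in DESeq2 (adjusted p = 0.0146), with limma on FPKM (adjusted p = 0.0326) and, in edgeR, without db/+ brazzein replicate 2 (adjusted p = 0.0456) or db/+ sucrose replicate 1 (adjusted p = 0.0347). Mlxipl differed by -0.21 (SE 0.14, edgeR adjusted p = 0.350) when averaged over drinks.

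On single drinks, with 2 libraries against 2, 3 of the 10 genes passed as higher on water (Fasn, Me1 and Thrsp; 0.971% of all genes), 2 on sucrose (Fasn and Thrsp; 0.47% of all genes) and 3 on brazzein (Fasn, Me1 and Thrsp; 0.925% of all genes), and 0 as lower. Fasn rose by 2.34 (SE 0.28) on water, 2.88 (SE 0.28) on sucrose and 2.18 (SE 0.28) on brazzein. Thrsp rose by 5.59 (SE 0.62), 5.21 (SE 0.61) and 4.01 (SE 0.57). The genotype difference of Me1 on sucrose was 1.02 (SE 0.28, edgeR adjusted p = 0.124), beside 1.86 on water and 1.74 on brazzein, and its interactions of genotype with drink were not called. The count on water was 0 when replicate 2 of either genotype on water was left out, and 1 when db/db water replicate 1 was. The count on sucrose was 0 without db/+ sucrose replicate 1 or 2 and 1 without db/db sucrose replicate 1, and the count on brazzein was 1 without db/db brazzein replicate 2. DESeq2 called 6 genes higher and 1 lower (Mlxipl) on water, and 5 higher and 0 lower on each of sucrose and brazzein. The shares of all genes given above are those of edgeR, and the DESeq2 shares are not given here, so its counts cannot be read against them.

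The drinks ask whether sucrose or brazzein moved the pathway. In liver, edgeR called 0 of the 10 genes in any of the 12 drink comparisons (3 pairs of drinks over genotypes, in db/+ and in db/db, and their interactions with genotype). Of all genes, sucrose minus water passed for 0.0155% over genotypes, 0.0155% in db/+, 0.00517% in db/db and 0.0155% in the interaction. Brazzein minus water passed for 0.0723%, 0.00517%, 0.119% and 0.0672%, and brazzein minus sucrose for 0.145%, 0.0207%, 0.16% and 0.0672%, in the same order. Between 0 and 3 of the 10 genes had an unadjusted p under 0.05, and DESeq2 called between 0 and 3. The genes it called were Mlxipl, Thrsp and Acaca, and its shares over all genes are not given here.

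Mlxipl, the glucose-responsive factor, differed between drinks within a genotype in DESeq2 but not in edgeR. In db/+ livers it stood at 112 and 121 CPM with water, 92.3 and 102 with sucrose, and 58.9 and 39.7 with brazzein. In db/db livers it stood at 37.8 and 58.9 CPM with water, 120 and 129 with sucrose, and 63.9 and 55.1 with brazzein. Brazzein was the lowest drink in db/+ livers and sucrose the highest in db/db livers. The share of all genes ordered so by drink was not counted, here or for Thrsp. With every liver included, edgeR called none of these differences. Over genotypes, brazzein minus sucrose was -1.02 (SE 0.18, edgeR adjusted p = 0.0766, DESeq2 adjusted p = 0.000162, limma on FPKM adjusted p = 0.0232).

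Within db/db, sucrose minus water for Mlxipl was 1.36 (SE 0.25, edgeR adjusted p = 0.555, DESeq2 adjusted p = 0.00282), and in db/+ it was -0.26 (SE 0.25). The interaction was 1.62 (SE 0.35, edgeR adjusted p = 0.805, DESeq2 adjusted p = 0.0239). On water, db/db minus db/+ was -1.26 (SE 0.25, edgeR adjusted p = 0.0561, DESeq2 adjusted p = 0.00103), and on sucrose it was 0.36 (SE 0.25). The difference on water also passed with edgeR's newer dispersion fit (adjusted p = 0.0465), with limma on FPKM (adjusted p = 0.0282) and, in edgeR, without db/+ brazzein replicate 1 (adjusted p = 0.0351) or 2 (adjusted p = 0.0349). The estimated count per unit of coverage of Mlxipl was not constant either. In db/+ livers it was 50.7 to 59.0 on water or sucrose, and in db/db livers it was 42.5 and 54.6 on water and 61.1 to 64.7 on sucrose or brazzein. Its part in the drink differences was not tested.

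Thrsp and Acaca were the other genes that DESeq2 called between drinks. Over genotypes, Thrsp on brazzein minus sucrose was 1.62 (SE 0.37, edgeR adjusted p = 0.127, DESeq2 adjusted p = 0.00263). Acaca on brazzein minus sucrose in db/db was -7.30 (SE 2.25, edgeR adjusted p = 0.201, DESeq2 adjusted p = 0.000271), which is the difference between 16.95 and 34.3 CPM on sucrose and 0.118 and 0.205 CPM on brazzein. Fasn was not called between drinks by either tool. Over genotypes its sucrose minus water was 0.11 (SE 0.19), brazzein minus water 0.29 (SE 0.19) and brazzein minus sucrose 0.18 (SE 0.19). Its brazzein minus sucrose was 0.53 (SE 0.27) in db/+ and -0.17 (SE 0.26) in db/db, with an interaction of -0.70 (SE 0.37, edgeR adjusted p = 0.567), and its sucrose minus water was -0.16 (SE 0.27) in db/+ and 0.38 (SE 0.26) in db/db. Without db/+ brazzein replicate 1, edgeR called Thrsp (adjusted p = 0.0284) and Mlxipl (adjusted p = 0.0467) between brazzein and sucrose over genotypes.

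In brain, edgeR called 0 of the 10 genes between genotypes averaged over drinks, where 0.00846% of all 23653 genes passed. None had an unadjusted p under 0.05, DESeq2 also called 0, and the 2 genotypes overlapped in CPM for all 10, where 1.86% of all genes did not overlap. Acly ranged from 268 to 297 CPM in db/+ brains and from 268 to 292 CPM in db/db brains, a difference of -0.03 (SE 0.03). Fasn ranged from 313 to 376 and from 273 to 377 CPM (-0.08, SE 0.07), Me1 from 73.4 to 80.4 and from 70.1 to 80.1 CPM (-0.05, SE 0.04), and Thrsp from 22.7 to 29.96 and from 26.4 to 32.98 CPM (0.10, SE 0.07). These 4 genes varied little between brains, with the highest library no more than 1.38 times the lowest within a genotype. On single drinks and between drinks, edgeR called 0 of the 10 genes in each brain comparison and DESeq2 also called 0, with 0 to 2 genes at an unadjusted p under 0.05. Of all genes, 0.0% to 0.00846% passed in these comparisons.

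**Figure D4:**
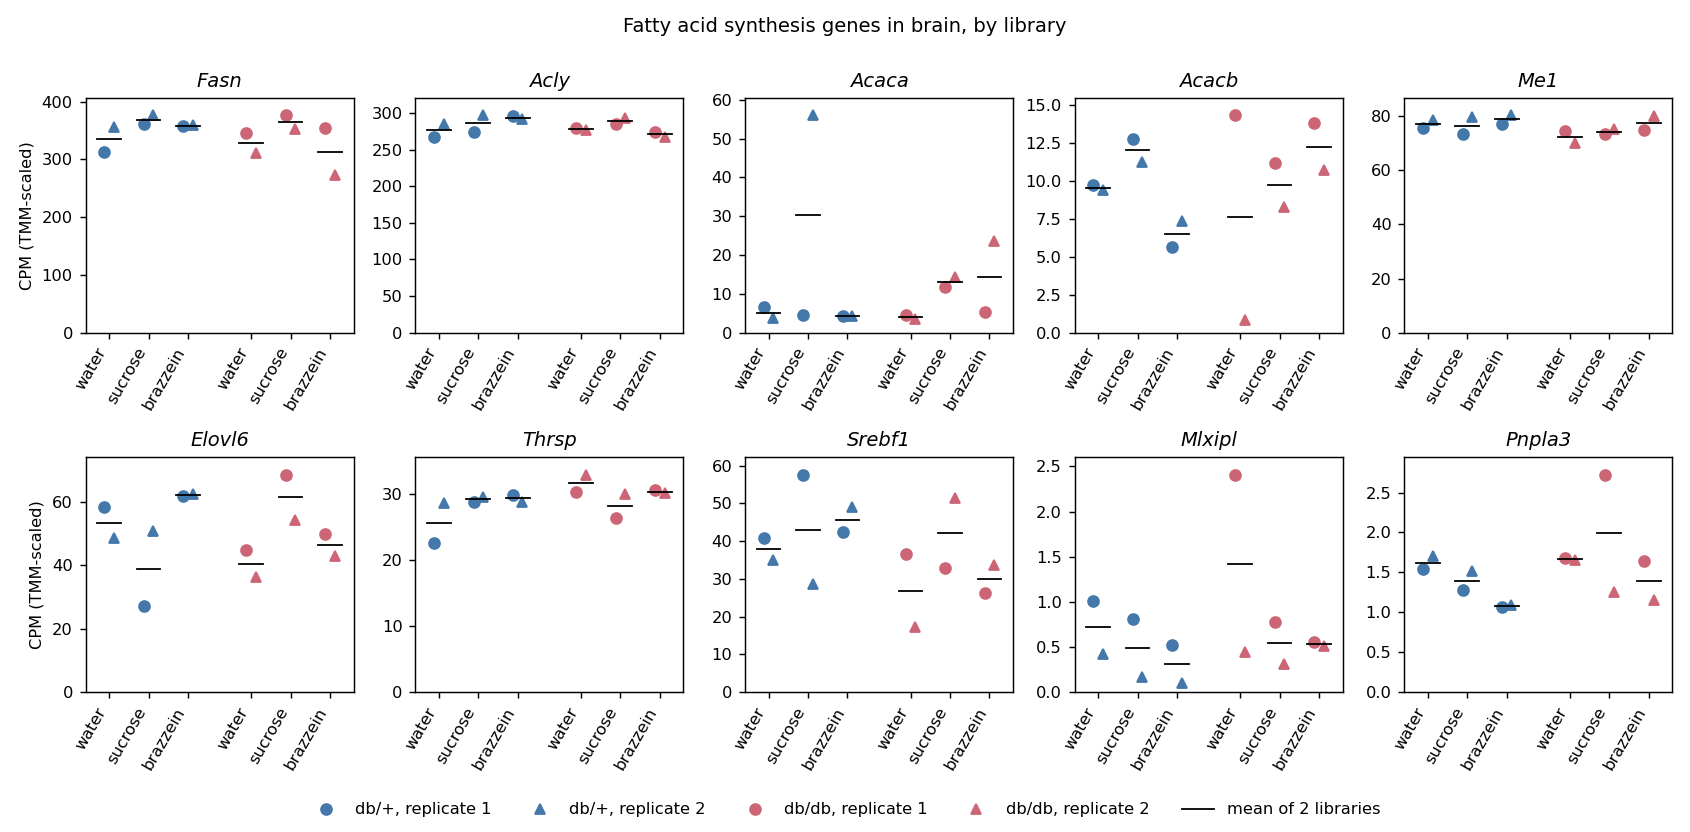
CPM (vertical axes from 0, scaled to each gene) of the 10 genes in the 12 brain libraries, grouped by genotype and drink, with a line at the mean of each group's 2 libraries. The genotypes overlap for all 10 genes, and single libraries stand apart for Acaca (56.1 CPM in db/+ sucrose replicate 2) and Acacb (0.842 CPM in db/db water replicate 2).

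Single brains stood apart for Acaca, Acacb and Mlxipl. Acaca stood at 6.49 and 3.65 CPM in db/+ brains with water, 4.53 and 56.1 with sucrose, and 4.24 and 4.34 with brazzein. In db/db brains it stood at 4.55 and 3.51 CPM with water, 11.7 and 14.4 with sucrose, and 5.20 and 23.6 with brazzein. Acaca was thus detected in every brain, with 1 db/+ brain at 56.1 CPM and 3 db/db brains above 10 CPM. Acacb ranged from 5.66 to 12.8 CPM in db/+ brains and from 8.27 to 14.3 CPM in 5 db/db brains. The sixth, water replicate 2, stood at 0.842 CPM, with 20.5 estimated counts per unit of coverage against 87.1 to 113 in the other brains. Mlxipl, at low levels, ranged from 0.108 to 1.01 CPM in db/+ brains, and from 0.308 to 0.783 CPM in 5 db/db brains with water replicate 1 at 2.41 CPM. Without db/db water replicate 1, which leaves replicate 2 alone in its group, edgeR called Acacb in 4 brain comparisons that involve this group.

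The genotype difference itself differed between the tissues. No source used here says whether a liver and a brain came from the same mouse. The comparisons between tissues treat all libraries as independent. In a fit of all 24 libraries, the difference in liver minus that in brain was called as higher for 7 of the 10 genes, against 5.41% of all 25725 genes. These were Fasn at 2.55 (SE 0.17, edgeR adjusted p = 1.85e-06), Thrsp at 4.84 (SE 0.33, edgeR adjusted p = 2.02e-06), Me1 at 1.60 (SE 0.17), Acly at 1.28 (SE 0.18), Elovl6 at 2.71 (SE 0.63), Pnpla3 and Srebf1. Srebf1 reached 1.58 (SE 0.47, edgeR adjusted p = 0.0486), and its call remained in 6 of 24 fits with 1 library left out, with an adjusted p of up to 0.105 in the others. It was also lost with RLE factors (adjusted p = 0.0542), without the filter (adjusted p = 0.0636) and with the replicate block (adjusted p = 0.0617). Its db/db minus db/+ value was 1.19 in liver and -0.38 (SE 0.24) in brain. For Acaca the difference was 4.11 (SE 1.30, edgeR adjusted p = 0.0622), and it passed in DESeq2 (adjusted p = 0.00363) and, in edgeR, without liver db/db water replicate 2 (adjusted p = 0.0117). For Acacb it was 0.80 (SE 0.60, edgeR adjusted p = 0.539), and it was 1.85 without brain db/db water replicate 1 (adjusted p = 0.00114). Mlxipl differed by -0.82 (SE 0.63, edgeR adjusted p = 0.554).

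**Figure D5:**
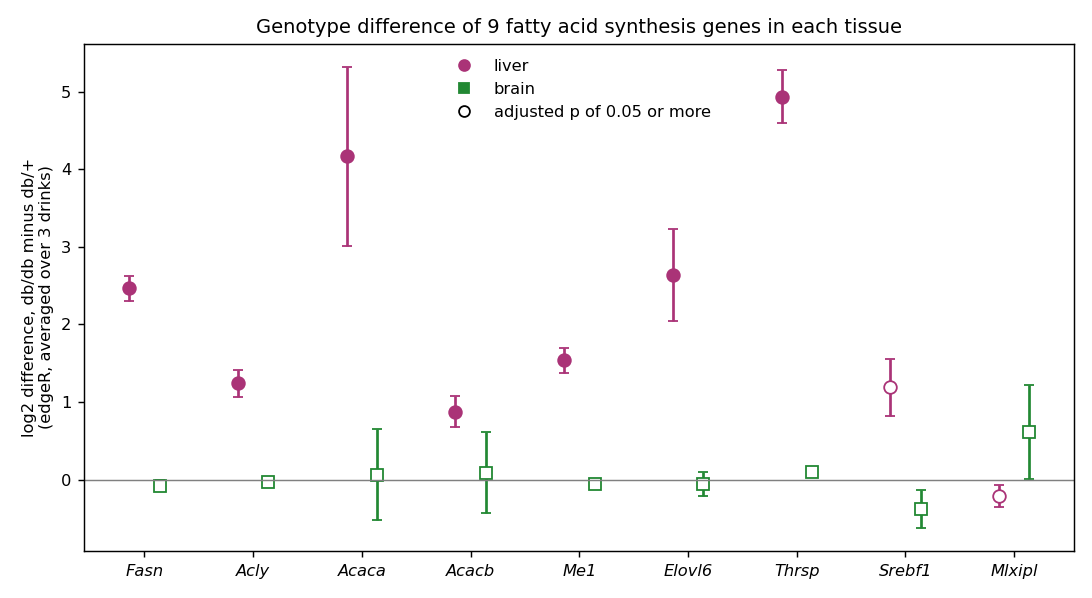
Log2 difference of db/db minus db/+ averaged over drinks (vertical axis, bars are ± 1 SE from edgeR) for 9 of the 10 genes in liver (circles) and brain (squares), filled where the adjusted p is under 0.05. Liver values run from -0.21 for Mlxipl to 4.93 for Thrsp, brain values lie between -0.38 and 0.62 with none filled, and Pnpla3 is left out because its db/+ livers are listed almost wholly at 0.

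The tissues also differed in level. Averaged over the 6 groups of each tissue, all 10 genes were called between liver and brain, where 84.5% of all genes were called. On this scale the median of all genes was -0.61 (liver minus brain), which shifts each value. On this average Mlxipl had the largest value at 7.98 (SE 0.41), followed by Thrsp at 2.63, Acacb at 2.61 and Me1 at 2.34. Srebf1 at 0.77 (SE 0.23) and Elovl6 at 0.70 (SE 0.31, edgeR adjusted p = 0.0478) were also higher in liver on this average, and the call of Elovl6 was lost with RLE factors (adjusted p = 0.0865), without the filter (adjusted p = 0.0833), with DESeq2 (adjusted p = 0.0651) and with the replicate block (adjusted p = 0.0626). For Thrsp, Elovl6, Srebf1 and Acaca the average joins genotypes whose medians lay on opposite sides. Thrsp had a median of 6.55 FPKM in liver and 15.4 in brain of db/+ mice, and 292 and 16.5 FPKM in db/db mice. Elovl6 had 2.16 FPKM in liver and 6.56 in brain in db/+, and 12.1 and 5.64 in db/db. Srebf1 had 4.37 FPKM in liver and 7.61 in brain in db/+, and 14.9 and 6.66 in db/db. Acaca had 0.0212 FPKM in liver and 0.395 in brain in db/+, and 0.769 and 0.676 in db/db. The tissue difference was not tested within a genotype. Fasn (-0.79, SE 0.09), Acly (-1.31, SE 0.09), Acaca (-2.43, SE 0.65) and Pnpla3 (-5.16, SE 0.33) were lower in liver on the average over the groups.

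Genes around the pathway were examined from 4 lists. Of 13 tested genes that supply citrate, acetyl-CoA and NADPH, 8 rose in db/db liver and 0 fell (median log2 0.68), where 7.91% of all genes tested passed as higher and 7.27% as lower. They included Taldo1 (0.94, SE 0.09) and Tkt (1.33, SE 0.14), enzymes of the pentose phosphate pathway, and Pdha1 (0.67, SE 0.09) and Cs (0.68, SE 0.11), which lead pyruvate into citrate. Of 9 genes of sugar entry, 5 rose and 0 fell (median 1.03). They included Pklr, the liver pyruvate kinase (2.73, SE 0.29), Khk, which phosphorylates fructose (1.34, SE 0.15), and Tkfc, a later enzyme of the fructose pathway (1.28, SE 0.23, the fifth by p and named after its values were seen).

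Of 13 genes of desaturation and chain elongation, 7 rose and 2 fell (median 0.53). Scd1, the main stearoyl-CoA desaturase of liver, rose by 2.14 (SE 0.36), from 1649 to 3281 CPM in db/+ livers to 4186 to 13035 CPM in db/db livers. Fads1 (0.72, SE 0.10), Hsd17b12 (0.77, SE 0.14) and Elovl1 (0.53, SE 0.10) also rose. Elovl2, an elongase of polyunsaturated fatty acids, fell by 0.92 (SE 0.12) and Elovl3 fell by 2.63 (SE 0.59), so the 2 elongases moved opposite to Elovl6. Of 22 regulators, 1 rose, Pparg (1.26, SE 0.28), which is known to drive fat storage, and 1 fell, Stk11 (-0.66, SE 0.07), the kinase upstream of AMPK (median -0.07). The regulators' counts are no higher than the shares of all genes would give. In brain, edgeR called 0 genes of any of the 4 lists between genotypes.

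Markers of other cells were read beside these results. Of all genes tested between genotypes in liver, 7.91% passed as higher and 7.27% as lower. The summed hepatocyte markers ranged from 71211 to 97135 CPM in db/+ livers and from 67322 to 97067 CPM in db/db livers, with 1 of 7, Serpina1c, called lower. The 7 adipocyte markers summed to 9.47 to 17.1 CPM in db/+ livers and 25.5 to 51.1 CPM in db/db livers, and 2 of the 5 tested were called higher (Fabp4 and Retn) and 1 lower (Adrb3). Retn passed the filter on low counts only through db/db livers, so its call adds no support. Of their defining genes, Adipoq stayed at or below 0.208 CPM, Plin1 at or below 0.161 CPM and Lep at or below 0.0732 CPM in all livers. The 5 erythroid markers summed to 659 to 1214 CPM in db/+ livers and 1101 to 3708 CPM in db/db livers, with 4 of 5 called higher. Of the Kupffer cell markers 1 of 6 was called higher, of the stellate markers 1 of 5 higher and 1 lower, and of the cholangiocyte markers 0 of 5. Their part in the differences of the 10 genes was not tested.

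The genes most like Fasn over the 12 livers, by Pearson correlation of log2(CPM + 1) among 11422 genes, were Pls1 (r = 0.98), Aldh1a7 (0.97), Cidea (0.97), Nqo1 (0.97) and Aqp7 (0.97). All 5 were higher in every db/db liver than in every db/+ liver, for example Cidea, a lipid droplet protein, at 70.8 to 199.7 CPM against 0.0 to 0.430 CPM. Such a separation, found for 4.91% of all genes tested, follows here from the choice, since Fasn itself separated the genotypes. Among the 8 other members with a mean of at least 1 CPM (Pnpla3 was below), Thrsp (0.96), Acly (0.92) and Me1 (0.91) were closest to Fasn and Mlxipl (-0.19) was farthest. The genes most like Acaca were Adgrf5 (0.99), Cyb561 (0.99), C2cd5 (0.95), Arhgef11 (0.93) and Synj2 (0.92). Adgrf5 and Cyb561, picked for this likeness, had the same 2 levels as Acaca. Adgrf5 stood at 9.99 CPM in db/db water replicate 1 and at 4.82 and 12.1 CPM on sucrose, and at 0.0143 CPM or less in the other 9 livers. These correlations run over livers of both genotypes, which also differ in depth, and no p-value is attached to them.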

How the data were processed

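Per the labels' protocols, TRIzol was used for extraction, poly(A) beads for mRNA selection and a NEBNext Ultra II kit for the libraries. The submitters' processing notes name bcl2fastq and the build GRCm39. The aligner, counter and annotation: not given in the sources used here. The deposited per-sample files hold expected counts, whole numbers estimated per gene. A deposited series table holds coverage signal and FPKM, used for the count per coverage, for levels compared between genes and for 1 alternative. For db/+ brazzein livers, 2 count files carry each other's replicate name in their headers, an exchange within 1 group. Their FPKM columns were therefore used by group only, and 2 coverage columns were left unused. No source used here says whether counting used strand, so reads of overlapping genes (Tada2a with Acaca, Rai1 with Srebf1) cannot be told apart.

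Counts were tested in R 4.3.3 with edgeR 4.0.16 (TMM, filterByExpr, quasi-likelihood), with 6 groups per tissue and, for tissue comparisons, 12 groups over all 24 libraries. P-values were adjusted over all genes tested, with a threshold of 0.05. CPM uses TMM library sizes within a tissue. Fitted differences are log2. The edgeR test of genotype averaged over drinks was tried on simulated counts for each tissue. The other comparisons and tools were not. The counts are estimates, so no counting interval is given.

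The members, gene lists and tests were chosen with earlier results of these data known. Named genes were all members, the 5 genes most like Fasn and like Acaca (mean of at least 1 CPM), up to 4 called genes per list and direction by smallest p (some of those for sugar entry are not reported here), Lepr, and neighbours of members with a library under 0.1 of the tissue median. Alternatives were RLE factors, no filter, DESeq2 1.42.0, a block for replicate number, and fits without each library in turn. Added after seeing the data were edgeR's newer dispersion fit and limma 3.58.1 on log2(FPKM + 0.1).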

Additional observations from a re-analysis of the deposited data

Results flagged for a closer look

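Within each tissue and genotype, the 6 libraries of each gene were checked for a single library far from the other 5. Of 40 such sets, 8 held one. The cutoff has a rate of about 1 in 20 only for values drawn from 1 normal distribution. These sets pool the drinks and some lie near 0, so no excess over chance is read from the 8. In liver db/+, Acaca was high in water replicate 1 (0.590 CPM, the others 0.0346 to 0.222), Thrsp in brazzein replicate 2 (67.7 CPM, the others 7.51 to 20.9) and Pnpla3 in sucrose replicate 1 (0.0346 CPM, the others listed at 0). In brain db/+, water replicate 1 was low for Fasn (312.8 CPM, the others 356 to 376) and for Thrsp (22.7 CPM, the others 28.6 to 29.96), and Acaca was high in sucrose replicate 2 (56.1 CPM, the others 3.65 to 6.49). In brain db/db, Mlxipl was high in water replicate 1 (2.41 CPM, the others 0.308 to 0.783) and Pnpla3 in sucrose replicate 1 (2.72 CPM, the others 1.15 to 1.68).

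For 7 genes the genotype difference in liver was larger than that in brain by the test of the difference itself (edgeR adjusted p under 0.05). The log2 values were 2.55 for Fasn, 1.28 for Acly, 1.60 for Me1, 2.71 for Elovl6, 4.84 for Thrsp, 1.58 for Srebf1 and 5.44 for Pnpla3. The value for Pnpla3 rests on db/+ livers listed almost wholly at 0 and depends on the prior count of the fit.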

How the results depend on the processing

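The count of genes higher in db/db liver (8) was 8 with RLE factors and without the filter, 9 with DESeq2, and 7 with the replicate block, with the newer dispersion fit and with limma on FPKM (which tested 9 of the 10), and 4 to 7 without 1 library. Under these settings 0 called members changed sign. The share of all genes that passed under each alternative setting is not given here. Counts on single drinks moved with the tool. DESeq2 called 7 on water (6 higher and Mlxipl lower), 5 on sucrose and 5 on brazzein, limma called 6 on water (5 higher and Mlxipl lower) and 4 on sucrose, the newer dispersion fit called 4 on water (3 higher and Mlxipl lower), and leaving out 1 library gave 0 to 4, 0 to 2 and 1 to 3. For liver drink comparisons at 0, DESeq2 called 3 for brazzein minus sucrose over genotypes, 2 for it in db/db and 1 in db/+, 2 for brazzein minus water in db/+, and 1 each for brazzein minus water over genotypes and in db/db, sucrose minus water in db/db and the 3 interactions. Limma called 1 for brazzein minus sucrose over genotypes and 1 in db/db. Without 1 library the count was 0 to 2 for brazzein minus sucrose over genotypes and 0 to 1 in db/+, and 0 to 1 for 4 brain comparisons (genotype on water, sucrose minus water and brazzein minus water in db/db, and the interaction of brazzein minus water). The cause was not tested. In brain, differences near 0 changed sign, at -0.03635 (main value 0.09) for Acacb with the replicate block, and at -0.42 to 0.98 for Acaca, -0.97 to 0.40 for Acacb and -0.18 to 0.12 for Elovl6 without 1 library. RLE factors moved liver minus brain by about 0.10 (Fasn -0.102) and changed the genotype values of Fasn and Thrsp by at most 0.016. Correlations of same-numbered deviations over the genes tested ran from -0.105 to 0.0921 in liver and from -0.0405 to 0.0404 in brain. None of 15 group pairs per tissue was above 0.1, so no pairing by replicate number was seen. A pairing that touches few genes, or that does not follow these numbers, would not show. The block changed the calls of Acaca in liver (adjusted p = 0.0713), Srebf1 between tissues (adjusted p = 0.0617) and Elovl6 between liver and brain (adjusted p = 0.0626). A library left alone in its group was taken to vary like the others. Estimated counts of 0 to 35 limit what can be said of Pnpla3 and of Acaca in most livers.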

Other observations

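Genes beside members with a very low library were read as well. Over the 12 brains, Ung and Foxn4, the neighbours of Acacb, ran from 1.80 to 3.49 CPM and from 0.0 to 0.1202 CPM. Over the 12 livers, Gm35986, which overlaps Elovl6, ran from 0.375 to 6.001 CPM, Rpl7a-ps7 and Egf beside Elovl6 from 0.249 to 0.879 and from 0.717 to 1.82 CPM, and Ndufc2 beside Thrsp from 56.7 to 132 CPM. Samm50 beside Pnpla3 ran from 101.9 to 185 CPM, and Gm20369 and Mir6392, which overlap Pnpla3, from 0.62495 to 1.51 and from 0.0 to 0.0374 CPM.

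Tada2a, which overlaps Acaca, and Aatf were looked at after the Acaca values were seen. In the 3 livers where Acaca was high, Tada2a stood at 0.770 CPM (db/db water replicate 1), 4.46 CPM and 4.58 CPM (db/db sucrose). In the other 9 livers it ran from 0.233 to 5.45 CPM. Aatf, the next gene, ran from 9.59 to 23.7 CPM over all 12 livers.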
